A study of Homo sapiens with 16 samples.

Results

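Heat-assisted improved AGPC extraction (hiAGPC) was compared with conventional AGPC extraction in unstressed HEK293 cells, a human embryonic kidney cell line. The comparison uses 4 of the 16 RNA-seq libraries of the series, which were chosen by their labels: 2 hiAGPC and 2 conventional libraries of cells of WT genotype that received no treatment, numbered as biological replicates 1 and 2 of each. Downstream-of-gene transcripts (DoGs) were listed per library, and 570 of the 3505 DoG-producing genes of the series were listed in at least 1 of these 4 libraries. FPKM (fragments per kilobase of the DoG region, scaled to the size of the library) was given for 3139 DoGs, which include 543 of the 570 genes and 2596 DoGs that none of the 4 libraries listed. The other libraries used for comparison are these. The SERIPH 1st- and 2nd-step fractions of the same untreated WT cells hold the RNA of the aqueous phase and the RNA released by heating from the washed interphase, with 2 libraries each. The stressed cells, also WT HEK293, were exposed to 200 mM sorbitol and 100 µg/mL cycloheximide for 9 h and extracted with hiAGPC or the conventional method, again with 2 libraries each.

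A DoG arises when RNA polymerase II fails to stop after the cleavage site of a gene and goes on transcribing into the sequence downstream, so that the RNA contains bases past the annotated gene end. DoGs stay mostly in the nucleus, near the site of their synthesis, and become abundant under osmotic and heat stress. AGPC reagents leave part of the nuclear RNA in the interphase between the aqueous and organic phases. Heating of the lysate at 55 °C before phase separation, as in hiAGPC, releases more of this semi-extractable RNA together with the RNA that conventional extraction already recovers.

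The 4 libraries listed between 330 and 486 genes, and the median FPKM over all DoGs was 0.07 in both conventional and 0.08 in both hiAGPC libraries. Replicates were close, with a Pearson correlation over DoGs of 0.992 between the conventional and 0.993 between the hiAGPC libraries on the log2(FPKM + 0.1) scale and a median SD between replicates of 0.07 on that scale. Many DoGs were too low for a precise fold change, since 1535 of the 3139 (48.9%) were under 0.1 FPKM in all 4 libraries. Since FPKM is a share of the RNA sequenced, more DoG RNA and less of other RNA cannot be told apart, nor can more RNA per cell and more cells that make it, in these bulk samples. Only DoG regions were deposited for these libraries among the files used here, so the markers of the cell line were not checked.

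The junctions between gene and DoG are shown for 5 of the DoGs on which the results turn, all listed in both hiAGPC libraries and called higher in hiAGPC. Each line holds 30 bases before and 30 bases from the start of the listed DoG region, read on the strand of the gene from GRCh38, so the region begins with base 31. The regions begin after the gene end of the annotation that the authors used. In the older annotation used here for positions the gene ends at the same base for SAMD5, BUB3 and TRMT11, but 1196 bases earlier for THOC3 and 247 bases earlier for GNG10. The ends coincide for 2293 of 3131 DoG genes (73.2%). Capitals mark the poly(A) signal hexamer AATAAA or its variant ATTAAA where it lies within the 30 bases before the region. The 5 were picked from 15 such DoGs, of which 5 had AATAAA, 1 had ATTAAA and 9 had neither within these 30 bases. Positions are chromosome 6 from 147737518 to 147737577 (plus strand) for SAMD5, chromosome 5 from 175916647 to 175916706 (minus) for THOC3, chromosome 10 from 123170438 to 123170497 (plus) for BUB3, chromosome 6 from 126203788 to 126203847 (plus) for TRMT11, and chromosome 9 from 111670444 to 111670503 (plus) for GNG10.
SAMD5: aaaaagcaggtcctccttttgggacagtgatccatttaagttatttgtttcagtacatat
THOC3: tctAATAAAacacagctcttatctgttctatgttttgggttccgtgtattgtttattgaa
BUB3: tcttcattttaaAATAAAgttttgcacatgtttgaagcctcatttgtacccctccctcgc
TRMT11: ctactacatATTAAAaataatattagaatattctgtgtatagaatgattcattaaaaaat
GNG10: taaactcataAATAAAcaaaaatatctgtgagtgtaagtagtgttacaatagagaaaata

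The shares of genes with such a signal were similar in the DoGs that differed and in the whole table. Searched on the gene's strand, AATAAA lay within the 50 bases before the region of 16 of the 34 DoG genes called higher in hiAGPC (47.1%) and of 52.1% of all DoG genes. ATTAAA without AATAAA was found in 4 of the 34 (11.8%) and in 13.6% of all. Within the 30 bases used for the capitals above, AATAAA was found in 12 of the 34 and in 41.2% of all. There ATTAAA without AATAAA was found in 3 of the 34 and in 11.9% of all. No motif within this window says only that these letters are not there.

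In hiAGPC more genes were listed, and they included nearly all of those that conventional extraction listed. Both conventional libraries listed 291 genes and both hiAGPC libraries 424. All 4 libraries shared 274 genes, which are 94.2% of the conventional and 64.6% of the hiAGPC genes, and 288 of the 291 conventional genes (99.0%) were listed in at least 1 hiAGPC library. In the other direction, 91 genes were listed in both hiAGPC libraries and in no conventional library. DoGs were listed by read coverage, and the part of sequencing depth in the numbers and lengths of regions was not tested. The numbers of genes listed per library did not overlap between the extractions, but 2 libraries against 2 allow no p-value under 0.333 in a two-sided exact permutation test, and p = 0.333 was found.

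The hiAGPC libraries also listed more long regions. The conventional libraries listed 63 and 58 regions of at least 20 kb, and the hiAGPC libraries 114 and 115. At 50 kb or more there was 1 region in each conventional library, against 18 and 17. No conventional region reached 100 kb, whereas 4 and 5 did in hiAGPC, and the longest was 50 kb in both conventional libraries, against 260 and 245 kb. The summed length of the regions was 4765 and 4465 kb in the conventional and 8273 and 8265 kb in the hiAGPC libraries, with mean lengths of 13.6 and 13.5 kb and of 17.0 and 17.3 kb. The share of regions at the minimum length of 10 kb was 64.1% and 64.5% in the conventional and 59.1% and 59.0% in the hiAGPC libraries. The numbers of regions of at least 20 kb, the summed lengths and the mean lengths did not overlap between the extractions and gave the same smallest exact permutation p of 0.333.

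**Figure D1:**
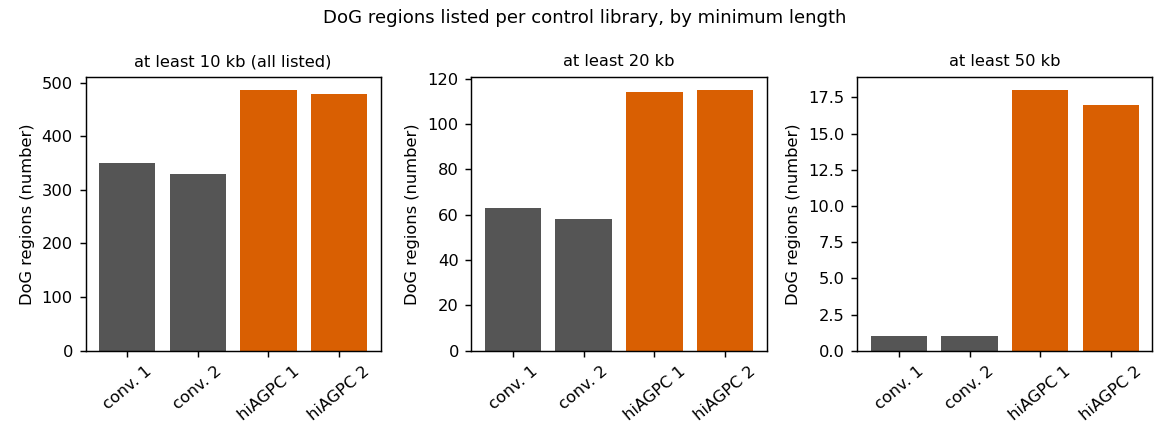
Number of DoG regions listed in each control library (y axis) at a minimum length of 10, 20 and 50 kb (panels), with 1 bar per library, conventional in grey and hiAGPC in orange. Both hiAGPC bars stand above both conventional bars in each panel, from 486 and 478 against 351 and 330 on the left to 18 and 17 against 1 and 1 on the right.

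The 91 genes listed in both hiAGPC libraries alone were low rather than absent in the conventional libraries. Over the 89 of them with FPKM, the median was 0.355 FPKM in conventional and 0.6 FPKM in hiAGPC, whereas the genes shared by all 4 libraries (260 with FPKM) had medians of 0.728 and 0.825 FPKM. The SERIPH libraries, which took no part in this choice, listed 84 of the 91 genes (92.3%) in both 2nd-step libraries and 22 (24.2%) in any 1st-step library. For the 274 shared genes these numbers were 235 (85.8%) and 255 (93.1%). Thus the 1st-step libraries listed most of the shared genes and few of those that hiAGPC alone listed, while the 2nd-step libraries listed most of both.

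By the mean over both replicates, the 5 genes with the longest hiAGPC regions among the 91 were POLE4, GNG10, SAMD5, EP400 and ICE1, and none had a region in a conventional or SERIPH 1st-step library. POLE4, which encodes a small subunit of DNA polymerase epsilon, had regions of 160 and 145 kb in hiAGPC and of 240 kb in both SERIPH 2nd-step libraries. GNG10, a gamma subunit of heterotrimeric G proteins, had 85 kb in both hiAGPC libraries and 95 kb in both 2nd-step libraries. Both regions were thus long in hiAGPC and not listed at all in conventional extraction. EP400, the ATPase of a chromatin remodelling complex, had 55 kb in both hiAGPC libraries, and its quantified region holds exons of other genes. ICE1, a component of the little elongation complex in transcription of small nuclear RNAs, had 40 and 35 kb.

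FPKM was computed over quantified regions that were longer than these hiAGPC regions. They spanned 240 kb for POLE4, 95 kb for GNG10 and 60 kb for both EP400 and ICE1. Over them FPKM was above 0 in conventional extraction as well. POLE4 had 0.24 and 0.22 FPKM in the conventional and 0.72 and 0.75 FPKM in the hiAGPC libraries. GNG10 had 0.27 and 0.26 against 0.75 and 0.76 FPKM. EP400 had 0.63 and 0.58 against 1.23 and 1.20 FPKM, and ICE1 0.51 in both against 0.75 and 0.73 FPKM. Both hiAGPC libraries were above both conventional libraries in all 4 genes, against 36.8% of all DoGs. The 4 had been chosen from genes that hiAGPC alone listed. In the limma fit POLE4 (log2 fold change 1.34, SE 0.0853, adjusted p = 1.35e-06) and GNG10 (1.23, SE 0.0934, adjusted p = 5.85e-06) passed the threshold of 1, whereas EP400 (0.90, SE 0.0761, adjusted p = 1.32e-05) and ICE1 (0.46, SE 0.112, adjusted p = 0.0186) passed the adjusted p-value alone.

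Of the 3 genes listed in both conventional and in no hiAGPC library, 1 was the same stretch of genome under another name. CENPW, which encodes a kinetochore protein, had a 20 kb region in both conventional libraries (chromosome 6, plus strand, positions 126348876 to 126368875). TRMT11, the catalytic subunit of a tRNA methyltransferase, lies upstream on the same strand, and its region in both hiAGPC libraries ran from 126203818 to 126398875, a length of 195 kb that covers CENPW and its conventional DoG. In SERIPH 2nd-step replicate 1 the TRMT11 region ended at 126428875. In 2nd-step replicate 2 it ended at 126338817, before the start of the conventional CENPW region, so these replicates differed. No such overlap was found for the 91 genes of hiAGPC, of which 0 overlapped a region that both conventional libraries listed under another gene.

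The other 2 genes, BRCC3 and TTC26, had 10 kb regions in both conventional libraries and none in hiAGPC or the SERIPH 2nd-step fraction. BRCC3, a deubiquitinating enzyme, had 3.22 FPKM in both conventional and 2.02 and 2.28 FPKM in the hiAGPC libraries. TTC26, a protein of intraflagellar transport, had 0.90 and 0.97 against 0.67 and 0.68 FPKM. Both hiAGPC libraries were below both conventional libraries in BRCC3 and in TTC26, against 12.5% of all DoGs. Neither difference passed the adjusted p-value (log2 fold change −0.56, SE 0.22, adjusted p = 0.127 and −0.42, SE 0.162, adjusted p = 0.126 by limma).

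Among the 274 genes that all 4 libraries listed, most regions had the same length in both extractions and a small number became much longer in hiAGPC. The mean length over replicates was longer in hiAGPC for 86 genes, shorter for 19 and equal for 169, and 120 of the genes stood at the minimum of 10 kb in all 4 libraries. The median of the ratio was 1 and its geometric mean 1.15. Both hiAGPC regions were longer than both conventional regions for 45 genes (16.4%) and shorter for 2 (0.73%), and 18 genes had a ratio of at least 2. The mean length per library over these genes was 14.2 and 14.0 kb in conventional and 18.4 kb in both hiAGPC libraries (two-sided exact permutation p = 0.333, the smallest possible), and the median was 10 kb in 3 libraries and 15 kb in hiAGPC replicate 1 (p = 1).

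UCHL3, a ubiquitin hydrolase, had 10 kb in both conventional and 95 kb in both hiAGPC libraries, a ratio of 9.5. BUB3, a spindle checkpoint protein, had 35 kb in both conventional libraries and 260 and 245 kb in hiAGPC. LYPLAL1, a lysophospholipase-like enzyme, went from 15 kb in both to 90 kb in both. These lengths separated the extractions without overlap, and replicates had equal lengths in all but the hiAGPC regions of BUB3. VRK1, a nuclear kinase, had 10 kb in both conventional and 55 kb in both hiAGPC libraries. RPL11, a protein of the large ribosomal subunit, had 10 kb in both and 45 kb in both.

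Longer regions did not always come with a higher FPKM. UCHL3 had 0.55 and 0.51 FPKM in conventional and 1.05 FPKM in both hiAGPC libraries (log2 fold change 0.87, SE 0.102, adjusted p = 0.000197 by limma), and LYPLAL1 had 0.32 and 0.28 against 0.64 and 0.67 FPKM (0.92, SE 0.103, adjusted p = 0.00013). RPL11 had 1.54 and 1.47 FPKM in the conventional and 1.5 and 1.47 FPKM in the hiAGPC libraries, which overlapped, with a log2 fold change of −0.02 (SE 0.0625, adjusted p = 0.98). The quantified region of RPL11 is 90.2 kb long and holds exons of the coding genes ELOA and PITHD1. That of UCHL3 (115 kb) holds exons of LMO7. Reads of ELOA, PITHD1 and LMO7 can therefore be counted in these values. These regions, and that of LYPLAL1 (215 kb), are longer than the listed hiAGPC regions. No FPKM was given for VRK1.

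In HEATR1 and MRPL3 both hiAGPC regions were shorter than both conventional ones, at 15 kb in both conventional and 10 kb in both hiAGPC libraries. HEATR1 acts in ribosome biogenesis and MRPL3 in the mitochondrial ribosome. Their FPKM was 3.10 and 3.09 against 2.58 and 2.45 for HEATR1, and 1.76 and 1.90 against 1.46 and 1.5 for MRPL3. Both were lower in both hiAGPC libraries, at adjusted p = 0.337 and 0.131 by limma. RAB4A, an endosomal GTPase with the next lowest ratio, had 20 kb in both conventional libraries and 10 and 20 kb in hiAGPC.

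FPKM was then compared across the 3139 DoGs, whether listed or not. On the log2(FPKM + 0.1) scale, a DoG was called changed at an adjusted p-value under 0.05 (limma, Benjamini-Hochberg over all DoGs) and a log2 fold change of at least 1, a scale that understates the changes of low values. In hiAGPC 34 DoGs (1.08%) were called higher and 0 (0%) lower. The log2 fold changes ran from −0.75 to 2.07 with a median of 0.06. Without the fold threshold, 362 DoGs (11.5%) were higher and 63 (2.01%) lower at an adjusted p-value under 0.05, and at an unadjusted p-value under 0.05 there were 639 and 162. Both hiAGPC libraries were above both conventional libraries for 1155 DoGs (36.8%) and below for 392 (12.5%). After centring of the libraries on their medians, which moves the values of this comparison by −0.08, 231 were higher and 100 lower by the adjusted p-value. These numbers were 200 and 17 without conventional replicate 1, 170 and 17 without conventional replicate 2, 201 and 20 without hiAGPC replicate 1, and 162 and 9 without hiAGPC replicate 2.

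The 34 DoGs came from many places in the genome. Their conventional mean lay between 0.045 and 0.605 FPKM (median 0.133) and their hiAGPC mean between 0.275 and 1.525 FPKM (median 0.508). Over all DoGs the medians of these means were lower, at 0.07 FPKM in conventional and 0.085 FPKM in hiAGPC. The ratio of the means ran from 2.39 to 10 with a median of 3.56. They lay on 16 chromosomes, 28 belonged to protein-coding and 6 to lncRNA genes, and 0 pairs of their quantified regions overlapped on the same strand. At least 1 hiAGPC library listed 19 of them, at least 1 conventional library 4, and none of the 4 libraries listed 15, which have an FPKM because another library of the series listed them. Of the 3505 genes of the series, at least 1 hiAGPC library listed 540 and at least 1 conventional library 390.

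**Figure D2:**
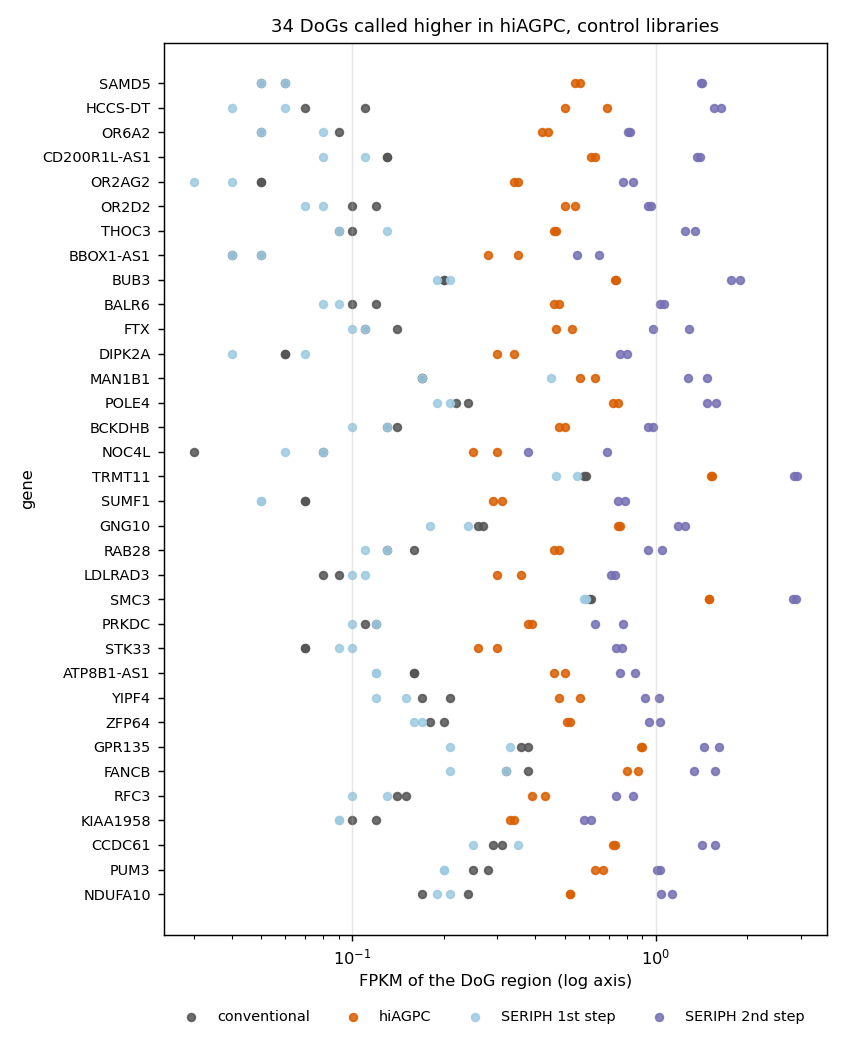
FPKM of the 34 DoGs called higher in hiAGPC (x axis, log scale, 1 row per gene in order of log2 fold change) in the 8 control libraries, with 2 points per preparation. The orange hiAGPC points lie to the right of the grey conventional points in every row, and both purple SERIPH 2nd-step points lie to the right of both orange points in all 34.

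SAMD5, which encodes a protein with a sterile alpha motif, had the largest difference. Its FPKM was 0.05 and 0.06 in the conventional and 0.54 and 0.56 in the hiAGPC libraries, a ratio of 10 and a log2 fold change of 2.07 (SE 0.0777, adjusted p = 3.82e-08 by limma). Its region was 55 kb in both hiAGPC libraries and 155 and 175 kb in those of the SERIPH 2nd step, and no other control library listed one. The quantified region spans 175 kb of chromosome 6 (plus strand, 147737548 to 147912547). It holds 9 bases of exons of other genes.

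The lncRNA HCCS-DT, transcribed away from the gene of a mitochondrial cytochrome synthase, followed with 0.11 and 0.07 against 0.69 and 0.50 FPKM (log2 fold change 1.87, SE 0.152). CD200R1L-AS1, an antisense lncRNA, had 0.13 FPKM in both conventional and 0.63 and 0.61 FPKM in the hiAGPC libraries (1.65, SE 0.0925), with regions of 50 and 20 kb in hiAGPC alone of the 4 libraries. BBOX1-AS1, another antisense lncRNA, had 0.04 and 0.05 against 0.28 and 0.35 FPKM (1.51, SE 0.169). As in all 34 called DoGs, the extractions did not overlap in any of these lncRNAs. Over all DoGs, both hiAGPC libraries were above both conventional libraries in 36.8%. Replicates were farther apart in HCCS-DT, whose quantified region is 10 kb long. FTX, a lncRNA of the X-inactivation centre, had 0.14 and 0.11 against 0.47 and 0.53 FPKM (1.42, SE 0.145, adjusted p = 5.66e-05 by limma) and a 10 kb region in both hiAGPC libraries, and BALR6 had 0.12 and 0.10 against 0.48 and 0.46 FPKM (1.44, SE 0.0774). BALR6 is listed over as much as 275 kb in the SERIPH 2nd-step libraries and in none of the 4 libraries compared here.

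Of the called DoGs, 3 belong to neighbouring olfactory receptor genes, OR6A2, OR2AG2 and OR2D2, whose products are odorant receptors of sensory neurons. Their quantified regions lie on the minus strand of chromosome 11 within 161 kb, from 6730626 to 6765625 for OR2AG2, from 6776736 to 6791735 for OR6A2 and from 6801574 to 6891573 for OR2D2, and they do not overlap. OR6A2 had 0.09 and 0.05 FPKM in conventional and 0.44 and 0.42 FPKM in hiAGPC (log2 fold change 1.65, SE 0.131). OR2AG2 had 0.05 in both against 0.35 and 0.34 FPKM (1.57, SE 0.108), and OR2D2 had 0.12 and 0.10 against 0.50 and 0.54 FPKM (1.56, SE 0.0809). The hiAGPC values of the 3 regions did not overlap, with the lowest in OR2AG2 and the highest in OR2D2. OR2D2 was the only one of them with a listed region in these libraries, of 10 and 20 kb in hiAGPC. Whether the 3 regions belong to 1 transcript was not tested.

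Among the other protein-coding genes, THOC3, a subunit of the THO complex in mRNA export, had 0.10 and 0.09 FPKM in the conventional and 0.46 and 0.47 FPKM in the hiAGPC libraries (log2 fold change 1.54, SE 0.103), and regions of 15 and 30 kb in hiAGPC. In the sequence above, AATAAA begins 27 bases before the listed region of THOC3. BUB3 had 0.20 in both against 0.73 and 0.74 FPKM (1.48, SE 0.0739, adjusted p = 4.61e-07 by limma), over a quantified region of 495 kb. DIPK2A had 0.06 in both against 0.30 and 0.34 FPKM (1.39, SE 0.1). In each of them the replicates of an extraction lay close together and far from the other extraction. The 3 of the 34 called DoGs that all 4 libraries listed were BUB3, FANCB and GPR135, a share close to that over the table, where 260 of 3139 DoGs were so listed. FANCB, a protein of the Fanconi anaemia pathway, had regions of 35 and 20 kb in conventional and of 110 and 95 kb in hiAGPC, with 0.38 and 0.32 against 0.80 and 0.87 FPKM (1.06, SE 0.141).

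The highest hiAGPC values among the 34 were those of TRMT11 and SMC3. TRMT11 had 0.59 and 0.58 FPKM in the conventional and 1.52 and 1.53 FPKM in the hiAGPC libraries (log2 fold change 1.25, SE 0.0779, adjusted p = 1.35e-06 by limma), and a 10 kb region in conventional replicate 1 alone against 195 kb in both hiAGPC libraries. Its quantified region includes exons of CENPW. SMC3, a core subunit of cohesin, had 0.61 and 0.60 against 1.5 in both (1.18, SE 0.0654, adjusted p = 5.71e-07), and no control library listed it. Its quantified region of 190 kb includes exons of the coding gene RBM20. TRMT11 and SMC3 were the only DoGs among the 34 whose regions hold exons of another coding gene, against 19.7% of all DoGs.

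Other features of the 34 DoGs are set beside the whole table, with no test. Their genes had a median length of 119.9 against 31.9 kb over all DoGs, and their quantified regions spanned a median of 67.5 against 30 kb. The first 10 kb of the region had a median GC content of 40.6%, against 46.1% over all DoGs. Of the 34, 6 (17.6%) were lncRNA genes, against 8.22%, and 12 (35.3%) had exons of any other gene on the same strand in the region, against 40.1%. These features are not independent of each other or of the length over which reads are summed, and they are given as a description.

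The genes grouped by name or family are given beside the whole table, in which 11.5% of DoGs were higher and 2.01% lower by the adjusted p-value, 1.08% were called higher and the median was 0.06. Of 64 zinc finger genes, 0 were called, 4 (6.25%) were higher and 1 (1.56%) was lower by the adjusted p-value (median log2 fold change 0.04). ZNF638 had the largest difference past it, with 0.37 and 0.27 against 0.60 and 0.48 FPKM (0.61, SE 0.128, adjusted p = 0.00885 by limma). Of 70 genes of cytosolic translation, 10 (14.3%) were higher and 3 (4.29%) lower (median 0.07), with RPL6 of the large ribosomal subunit at 0.30 and 0.31 against 0.55 FPKM in both (0.68, SE 0.0816), although its region covers exons of HECTD4. Of 38 genes of mitochondrial respiration and the mitochondrial ribosome, 5 (13.2%) were higher and 0 lower (median 0.03). NDUFA10, a subunit of respiratory complex I, was the called one of them, with 0.24 and 0.17 against 0.52 FPKM in both (1.03, SE 0.103).

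Of 127 antisense lncRNAs, 9 (7.09%) were higher and 1 (0.787%) lower by the adjusted p-value, against 11.5% and 2.01% of all DoGs, with a median of 0.00, and 3 were called, CD200R1L-AS1, BBOX1-AS1 and ATP8B1-AS1. Of 32 divergent lncRNAs, 4 (12.5%) were higher and 0 lower (median 0.06), with HCCS-DT called. Small RNA host genes had 1 of 18 higher (median 0.11), which was MIR4713HG with 0.18 and 0.12 against 0.47 and 0.33 FPKM (1.00 after rounding and just under the threshold, SE 0.158, adjusted p = 0.00157 by limma). Among 4 regulatory lncRNAs FTX was higher and called, and among 13 genes of 3′ end processing and termination 2 were higher, PAPOLA and INTS4 (median 0.17). PAPOLA, the canonical poly(A) polymerase, had 0.38 and 0.37 against 0.55 and 0.54 FPKM (0.44, SE 0.0805), over a region of 568 kb that includes VRK1. INTS4, of the Integrator complex, had 0.11 and 0.12 against 0.20 and 0.16 FPKM (0.38, SE 0.107).

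Replication-dependent histone genes had a lower median than the table. Of 23, 0 were higher and 6 (26.1%) lower by the adjusted p-value, against 11.5% and 2.01% of all DoGs, with a median of −0.18. For 13 of the 23 the quantified region holds exons of other genes, and histone genes lie in clusters and are near-identical copies, so the gene from which reads came is uncertain. Of 11 stress-inducible genes 0 were higher and 2 lower (median 0.00), DNAJA1, a co-chaperone, with 0.11 and 0.07 against 0.04 FPKM in both, and PPP1R15A, a phosphatase subunit of the integrated stress response, with 0.27 and 0.29 against 0.21 and 0.17 FPKM. Of 5 genes that the study describes singly, 4 were higher (FTX, RRM2, TMEM38B and RPS12) and ARID1B had 0.04 in both against 0.05 FPKM in both (0.10, adjusted p = 0.559 by limma). The study showed RRM2, TMEM38B and ARID1B as examples from this series, ARID1B in stressed cells, and used RPS12 to set its DoG detection. TMEM38B was its example of a DoG of control cells found in the SERIPH 2nd step alone. The study counted DoGs detected in both replicates, and hiAGPC replicate 1 listed a 20 kb region of TMEM38B. The lncRNA FTX itself had been reported as semi-extractable before the study. These 5 genes are no independent evidence of a direction. RRM2, a subunit of ribonucleotide reductase, had 0.08 in both against 0.12 and 0.13 FPKM. RPS12, of the small ribosomal subunit, had 0.35 in both against 0.49 and 0.50 FPKM, over a region that includes exons of EYA4.

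No DoG was called lower, and the 63 that were lower by the adjusted p-value lay mostly over exons of other genes. Their median log2 fold change was −0.44, and both hiAGPC libraries were below both conventional libraries in all 63. In 51 (81.0%) the quantified region held exons of another gene on the same strand, against 40.1% of all DoGs, and in 37 (58.7%) exons of a coding gene, against 19.7%. Their regions were also longer than those of the table (median 45 against 30 kb). The conventional mean of the 63 lay between 0.075 and 10.225 FPKM with a median of 0.805, so they were higher in conventional extraction than the 34.

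The 5 lowest were GTF2H1, CPLANE2, H4C4, DNMT1 and H4C11, and 4 of these regions hold coding exons of another gene. GTF2H1, a subunit of the transcription factor TFIIH, had 2.99 and 2.94 FPKM in the conventional and 1.78 and 1.66 FPKM in the hiAGPC libraries (log2 fold change −0.75, SE 0.147, adjusted p = 0.00594 by limma), and its region holds exons of LDHA, a glycolytic enzyme. H4C4, a histone H4 gene, had 3.26 and 3.17 against 1.98 and 1.84 FPKM (−0.72, SE 0.0994), over H1-2, H1-6 and H2BC4. DNMT1, the maintenance DNA methyltransferase, had 3.86 and 3.93 against 2.57 and 2.32 FPKM (−0.65, SE 0.11), over EIF3G. H4C11 had 0.81 and 0.80 against 0.53 and 0.43 FPKM (−0.65, SE 0.107), over H2AC16 and H2BC15. CPLANE2, a protein of cilium formation, had 0.83 and 0.97 against 0.53 and 0.48 FPKM (−0.72, SE 0.184) with no coding exon of another gene. No library of the 4 listed any of the 5 as a DoG. Over the 1879 regions with no exon of another gene, 199 were higher and 12 lower by the adjusted p-value of the fit to all DoGs, and over the 617 with coding exons of another gene 91 and 37. The part of mature RNA of those genes in the values was not tested.

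The difference between the extractions is given next by the level of the region. That level was measured in the SERIPH 1st-step libraries, which take no part in the comparison. The 0.1 added to FPKM holds log2 fold changes of low values near 0. Its part in the differences between the lower steps was not tested. The median log2 fold change was 0.00 for 1332 DoGs under 0.05 FPKM, and 0.10, 0.15 and 0.25 in the steps from 0.05 to 0.1, 0.1 to 0.2 and 0.2 to 0.5 FPKM. It was 0.07 from 0.5 to 1 FPKM (264 DoGs), −0.14 from 1 to 2 FPKM (102) and −0.39 at 2 FPKM or more (45). With centring, the value from 0.5 to 1 FPKM falls just below 0, since all values move by −0.08. In regions with no exon of another gene the highest 2 steps had medians of −0.21 (29 DoGs) and −0.46 (9). By the adjusted p-value, 146 of the 573 DoGs from 0.2 to 0.5 FPKM were higher and 11 lower. From 1 to 2 FPKM 7 were higher and 12 lower, and at 2 FPKM or more 0 were higher and 14 lower, so most DoGs of each step did not pass it.

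**Figure D3:**
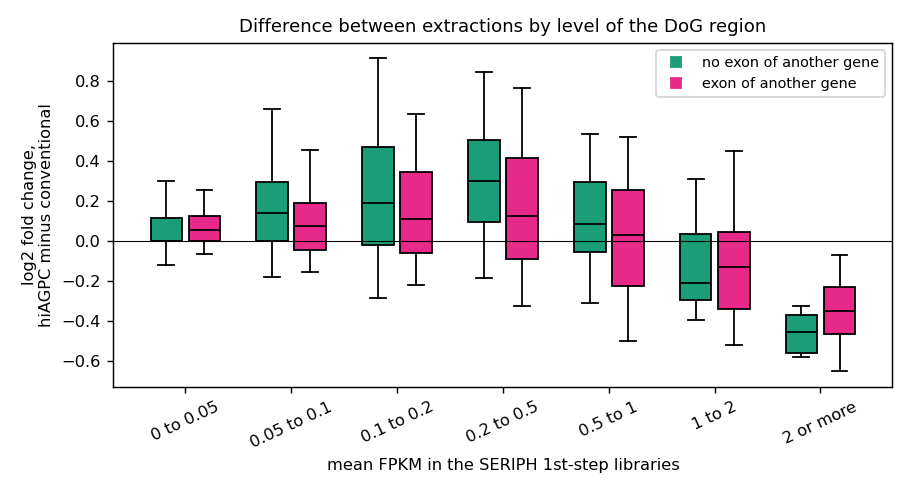
Log2 fold change between hiAGPC and conventional extraction (y axis) by the mean FPKM in the SERIPH 1st-step libraries (x axis, 7 steps), for regions without (green) and with (pink) exons of another gene. Boxes show the quartiles with the median, and whiskers reach from the 5th to the 95th percentile of the DoGs. The medians are highest from 0.2 to 0.5 FPKM and below 0 from 1 FPKM up. The 0.1 added to FPKM holds the values of the lower steps near 0.

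The most abundant genes that all 4 libraries list belong to these upper steps. TET1, an enzyme of DNA demethylation, had 3.75 and 3.95 FPKM in conventional and 2.94 and 2.89 FPKM in hiAGPC (adjusted p = 0.339 by limma). PBDC1 had 3.63 and 3.97 against 2.78 and 2.71 FPKM (adjusted p = 0.102). ALYREF, an mRNA export adaptor, had 3.78 and 4.04 against 2.48 and 2.53 FPKM (log2 fold change −0.62, SE 0.0922, adjusted p = 0.000977). All 3 were lower in both hiAGPC libraries, against 12.5% of all DoGs, and ALYREF alone passed the adjusted p-value. The regions kept their lengths of 10, 15 and 10 kb in all 4 libraries.

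The SERIPH fractions gave a second comparison of the same kind in separate libraries of untreated cells, although these may come from the same cell homogenates. Of the 34 DoGs called higher in hiAGPC, 34 were also called higher in the 2nd-step over the 1st-step fraction, against 11% of all DoGs, with log2 fold changes from 1.86 to 3.50 and a median of 2.23. Part of this count was set by how DoGs came to have an FPKM: of the 15 that none of the 4 libraries listed, 14 were listed among control libraries in the 2nd-step fraction alone and 1 in no control library. The 19 listed in at least 1 of the 4 libraries were all called higher in the 2nd step, against 27.4% of all DoGs so listed. Both 2nd-step libraries were above both hiAGPC libraries in all 34. SAMD5, for example, had 0.05 and 0.06 FPKM in the 1st-step and 1.41 and 1.42 FPKM in the 2nd-step libraries. BUB3 had 0.19 and 0.21 against 1.89 and 1.77 FPKM, with regions of 370 kb in both 2nd-step libraries. FTX had 0.10 and 0.11 against 0.98 and 1.28 FPKM. The conventional and 1st-step values of these genes were close together, and hiAGPC lay between them and the 2nd step. Both 2nd-step libraries listed 30 of the 34, and any 1st-step library 2. Of the 3505 genes of the series, these libraries listed 595 and 389. The count of 30 was set in part by the same route of entry into the table.

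The wider lists include DoGs that entered the table through the 2nd-step libraries in the same way. Of the 362 DoGs higher in hiAGPC by the adjusted p-value, 362 were also higher in the 2nd-step fraction by it, against 36.2% of all DoGs, and 352 were when each library was centred on its median. Of the 63 lower in hiAGPC, 60 were lower in the 2nd-step fraction, against 10.3%, and 44 were called lower, against 3.28%. GTF2H1 had 3.56 and 3.07 FPKM in the 1st-step and 0.24 and 0.23 FPKM in the 2nd-step libraries, and H4C4 4.10 and 3.12 against 0.03 FPKM in both. Over all DoGs the centring moved the SERIPH comparison by −0.23 and its calls from 344 higher and 103 lower to 188 and 158, and all 34 remained called higher.

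**Figure D4:**
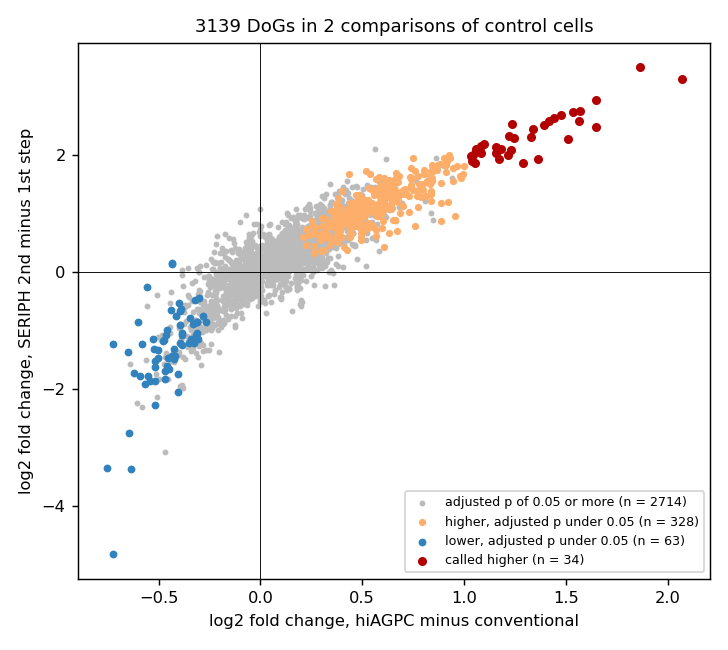
Log2 fold change of each of the 3139 DoGs between hiAGPC and conventional extraction (x axis) and between the SERIPH 2nd and 1st step (y axis), both in control cells and from separate libraries. The 34 called DoGs (dark red) lie between 1.86 and 3.50 on the y axis, and of the 63 lower DoGs (blue) 60 were lower by the adjusted p-value on that axis too.

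The difference between the extractions was then compared with that in stressed cells. Most DoGs of the table entered it through the stressed libraries, since 2325 had no region in any control library while 377 had none in any stressed library, so the shares over all DoGs given here are largely those of DoGs that were high under stress. The difference between the extractions was larger under stress for 2009 DoGs (64%) and smaller for 23 (0.733%) by the limma contrast of the 2 differences with the same thresholds. Among the 34, 0 were called larger and 13 smaller, a count that shares the control libraries by which the 34 were chosen. Some of the 34 were near 0 FPKM in stressed cells, where the 0.1 added to FPKM holds log2 fold changes near 0. Between the extractions of stressed cells, in the same fit of all 16 libraries, 7 of the 34 were called higher in hiAGPC, against 68.8% of all DoGs. The median log2 fold change was 0.61 against 1.40. With centring of the libraries, 0 of the 34 were called higher and 13 lower (median −0.83), against 111 higher and 502 lower over the table. These directions depend on the scale: with each library centred on its median, which moves the contrast by −1.36, 109 DoGs were called larger and 542 smaller over the table, and 0 and 31 among the 34.

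The levels of the 34 DoGs are given for both conditions as a description, since they were chosen for high values in the unstressed hiAGPC libraries. For 31 of them both stressed hiAGPC libraries were below both unstressed hiAGPC libraries, against 17.5% of all DoGs, most of which came from the stressed lists. OR2D2 had 0.50 and 0.54 FPKM in unstressed and 0.03 FPKM in both stressed hiAGPC libraries. BALR6 had 0.48 and 0.46 against 0.02 FPKM in both, and SAMD5 0.54 and 0.56 against 0.14 and 0.15 FPKM. The exceptions were BUB3, with 0.73 and 0.74 against 1.33 and 1.24 FPKM, DIPK2A, with 0.30 and 0.34 against 0.42 and 0.43 FPKM, and KIAA1958, with 0.33 and 0.34 against 0.61 and 0.54 FPKM. FPKM is relative to each library, and the parts of the treatment, of transcription and of the other RNA in the library in these values were not tested.

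**Figure D5:**
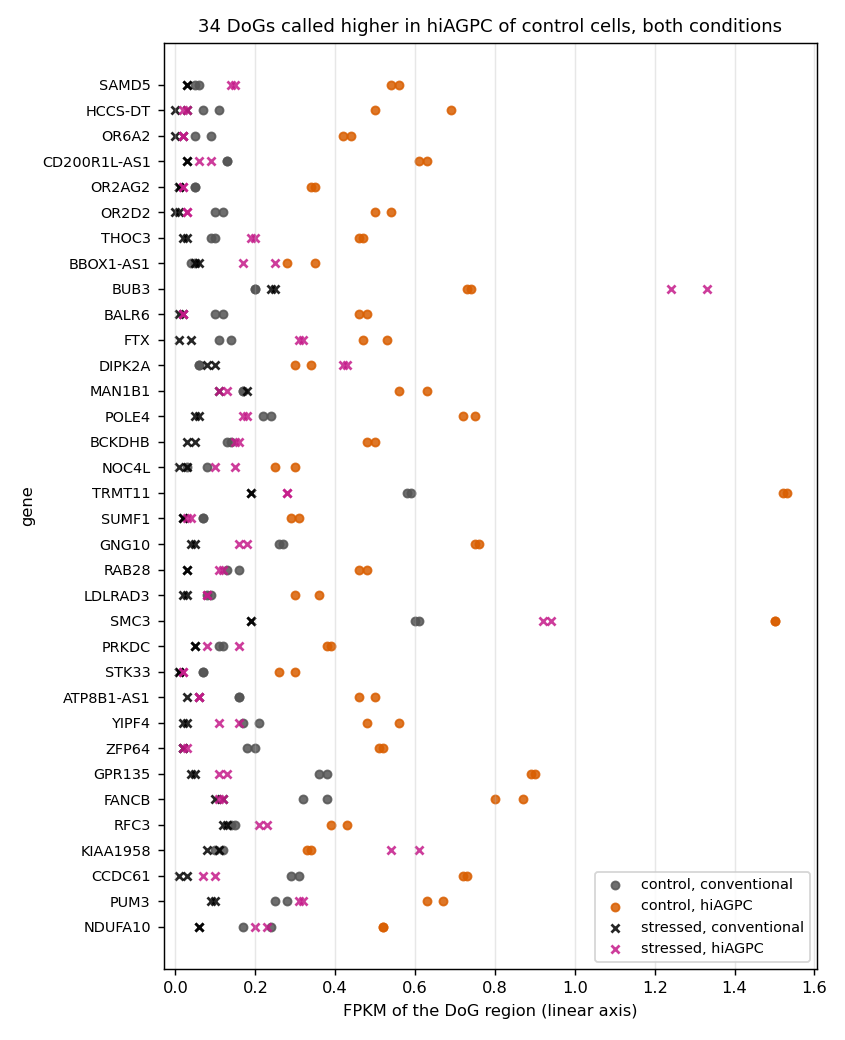
FPKM of the 34 DoGs (x axis, linear scale, 1 row per gene in order of log2 fold change) in unstressed (circles) and stressed cells (crosses) with conventional extraction (grey and black) and hiAGPC (orange and pink), 2 points per group. In 31 rows both pink crosses lie to the left of both orange circles, and BUB3, DIPK2A and KIAA1958 are the exceptions.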

How the data were processed

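Reads were trimmed by the authors (fastp 0.25.0), cleared of ribosomal sequence (Bowtie2 2.5.4) and aligned uniquely to GRCh38 (STAR 2.7.11b). The authors then listed DoGs of GENCODE v49 genes in each library with ARTDeco (at least 10 kb past the gene end, windows of 5 kb, coverage 0.5). The libraries were stranded and rRNA-depleted. The deposited FPKM values hold 1 region per gene, to 2 decimals, and the reads used for scaling are not given in the sources used here. The study gives a nominal range of read pairs per sample and not the depth of each library. Whole reads could not be recovered, so the depth per library is unknown and no counting error is given.

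From these values, log2(FPKM + 0.1) was fitted with limma 3.58.1 (R 4.3.3) over 8 groups of all 16 libraries, with an intensity trend, and tested on simulated data. A two-sided exact permutation test compared gene numbers and lengths between libraries. Python 3.11.15 with pandas 2.3.3 and scipy 1.17.1 handled the lists. Gene positions and exons came from GENCODE v44, which held 3131 of the 3139 DoG genes, and sequences from GRCh38. An adjusted p-value here is that of limma with Benjamini-Hochberg adjustment over all DoGs. The labels do not say whether replicates came from separate cultures beyond naming them biological, so p-values measure the spread between these samples.

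Genes described singly are the 12 called DoGs with the highest and the 5 DoGs with the lowest log2 fold change, the longest of those listed in 1 extraction alone, the largest and smallest length ratios, the most abundant shared genes, the genes the study names, and the extremes of each gene list. The other called DoGs named, CENPW, and the comparison by level were chosen after their values were seen. Members and lists were chosen with earlier results of these data known. The alternatives tried are given in the closing section. Gene expression was not analysed here.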

Additional observations from a re-analysis of the deposited data

Results flagged for a closer look

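The effect of hiAGPC differed between the conditions by the limma contrast of the stressed with the control difference, at an adjusted p-value under 0.05 and a log2 difference of at least 1. It was larger in stressed than in control cells for 2009 DoGs and smaller for 23. With each library centred on its median these numbers were 109 and 542.

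Of the DoGs described singly, 15 had a smaller effect under stress, and these include the 13 called ones. Those 13 were chosen by the control libraries that this contrast uses. Some of the 15 were near 0 FPKM in stressed cells, where the 0.1 added to FPKM holds log2 fold changes near 0. OR2D2 had 0.01 and 0 FPKM in conventional and 0.03 FPKM in both hiAGPC libraries of stressed cells. EP400, which was not near 0, had 0.75 and 0.77 against 0.65 and 0.59 FPKM. The log2 differences between the effects were −1.15 for SAMD5, −1.73 for HCCS-DT, −1.22 for CD200R1L-AS1, −1.38 for BALR6 and −1.01 for ATP8B1-AS1. The olfactory receptor genes had −1.52 for OR6A2, −1.44 for OR2AG2 and −1.25 for OR2D2. The remaining values were −1.16 for EP400, −1.003 for LYPLAL1, −1.03 for ZFP64, −1.03 for STK33, −1.02 for FANCB, −1.07 for SUMF1 and −1.504 for MAN1B1.

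A larger effect under stress was found for 16 DoGs described singly, none of them called in control cells. Genes that the study names had 1.97 for RRM2, 1.51 for ARID1B and 1.54 for RPS12. Among genes of translation and mitochondria, the log2 difference was 1.23 for RPS13, 2.18 for EIF4E and 1.10 for MRPL45. It was 1.13 for PAPOLA, 1.48 for INTS4 and 1.54 for CPSF6, which act in 3′ end processing. The values for zinc finger and histone genes were 1.03 for ZNF146, 1.08 for ZNF638 and 1.15 for H2BC26. Further values were 1.28 for FOXF2-DT, 1.96 for MIRLET7A1HG, 1.45 for MDM2 and 2.48 for DLEU2. All of these contrasts move by −1.36 when each library is centred on its median.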

How the results depend on the processing

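The number of DoGs called higher in hiAGPC changed with the pseudocount, with 127 at 0.01 and 0 at 1, where all 34 kept a positive log2 fold change, and 6 and 0 were called lower. It was 362 by the adjusted p-value alone (63 lower), 19 among the 543 DoGs listed in at least 1 of the 4 libraries, and 22 among the 1879 regions without exons of other genes, an alternative chosen after seeing the data. Without 1 library it ranged from 31 to 44, and without conventional replicate 2, 28 of the 34 remained called. Centring left 27 of the 34 called. Fitting the 4 libraries alone or the 8 control libraries alone left 32. The ratio of genes listed in both replicates was 1.38 with either replicate, 1.83 at a minimum of 20 kb and between 1.38 and 1.45 with 1 replicate left out. The geometric mean length ratio was 1.17 with the longer and 1.14 with the shorter region, 1.27 at 20 kb (47 genes) and between 1.15 and 1.16 with 1 replicate left out. For the SERIPH comparison, a pseudocount of 0.01 gave 860 higher and 197 lower, a pseudocount of 1 gave 13 and 13, and centring gave 188 and 158. For the contrast of conditions, a pseudocount of 1 gave 132 larger and 0 smaller, and centring gave 109 and 542.

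Of 1087 values of the 78 DoGs described singly, 1000 kept their direction and their side of the threshold, 54 lost a call, 31 gained one, and 2 changed sign: RPL11, which ranged from −0.0493 to 0.0137 with 1 library left out and was positive without conventional replicate 1, and KCNQ1OT1 at −0.0137 with centring. With a replicate block, the same 34 DoGs were called higher and 0 lower, and by the adjusted p-value alone 322 were higher and 54 lower. That count was 444 higher and 129 lower in a fit of the 4 libraries alone. Both extractions were run side by side on shared samples, but the labels do not say that a number marks 1 of them, so whether the numbers pair the samples is not known. Over DoGs, the replicate differences of both extractions had a correlation of −0.02. FPKM of 2 decimals limits the precision of DoGs near 0.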

Other observations

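Genes listed in 1 library alone differed between the extractions in what the SERIPH fractions listed. Of 89 genes listed in 1 hiAGPC and no conventional library, both SERIPH 2nd-step libraries listed 70 (78.7%) and any 1st-step library 11 (12.4%). Of 27 genes listed in 1 conventional and no hiAGPC library, these numbers were 5 (18.5%) and 14 (51.9%). The median FPKM of the first class was 0.32 in conventional and 0.51 in hiAGPC, and that of the second 0.57 and 0.505. Of 59 genes listed in both hiAGPC and 1 conventional library, both 2nd-step libraries listed 53 (89.8%).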
